A study of Homo sapiens with 24 samples.

Results

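BXPC3, an established human pancreatic adenocarcinoma cell line, was examined for its response to the PRMT5 inhibitor AM9747. The comparison rests on 8 RNA libraries of the 24 in the series, chosen by their labels: 4 from cells kept with DMSO vehicle and 4 from cells kept with 100 nM AM9747, all taken at day 6. The labels give every sample the genotype WT, and the series describes its lines as MTAP-deleted, so the vehicle cells carry that deletion too. The other 16 libraries are the same pair of groups in MIAPACA2 (150 nM) and PSN1 (100 nM), and they enter only the comparison between lines. BXPC3 is a single line, and the labels do not say whether the 4 libraries of a group came from separate cultures. A p-value here therefore reflects only how far these libraries spread.

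PRMT5 is the main enzyme that places symmetric dimethyl marks on arginine residues, among others on the Sm proteins at the core of the spliceosome and on histones. It works in a complex with WDR77 and needs S-adenosylmethionine as methyl donor. Cells without MTAP accumulate methylthioadenosine, which occupies the donor pocket of PRMT5, and compounds of the class of AM9747 bind PRMT5 together with that metabolite. The comparison asks which transcripts differ in these cells after the enzyme has been inhibited for several days.

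Levels are CPM, counts scaled to a common library total after TMM scaling (an adjustment for the composition of each library), and are given for libraries 1 to 4 of each group in that order. Log2 fold changes are AM9747 over vehicle, ± their standard error (SE). Adjusted p comes from edgeR's quasi-likelihood test of the 8 libraries alone, with Benjamini-Hochberg adjustment across every gene tested. A gene was called higher or lower where its adjusted p was below 0.05. Because CPM is not divided by transcript length, levels are compared between libraries and not between genes.

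Totals ran from 33.2 to 45.6 M counts per library, and mitochondrial genes took 6.6 to 8.98% of the vehicle counts and 4.34 to 10.2% of the AM9747 counts. Vehicle library 4 stood apart: its mean correlation with its own group was 0.9731, against 0.9869 to 0.9894 for vehicle libraries 1 to 3, and genes in the upper quartile of transcript length lay 0.38 log2 units below the group mean at the median (-0.38). AM9747 libraries 1 (0.25) and 4 (-0.22) were the extremes of their group on the same measure. Of the gene-by-gene deviation from the group means, 77.2% lay on a single axis. Where a value of vehicle library 4 stands off below, its part in the result was not tested unless a value without it is given. No pair of libraries in a group agreed within sampling noise (chi-square per gene of 7.07 or more). All 7 markers of ductal epithelium were detected, with a summed level of 7130 to 12300 CPM in vehicle and 4970 to 7450 CPM with AM9747. Summed acinar markers stayed at or below 1.84 CPM and endocrine markers at or below 0.365 CPM, with CELA3A, PNLIP, PTF1A, GCG, SST and NEUROD1 at 0 counts in all 8 libraries. Fibroblast markers summed to 25.7 to 29.3 CPM in vehicle and 42.6 to 52.6 CPM with AM9747, endothelial markers to 15.1 to 19.6 and 27.9 to 33 CPM, and immune markers to 33.6 to 37.7 and 7.32 to 22.8 CPM. Members of the endothelial sum differed in direction, with CDH5 and VWF called higher and PECAM1 lower. The immune sum in vehicle was mostly CD68, which went from a mean of 30.5 to 11.7 CPM. CD68 was the only immune marker called. The part of these markers in the changes described here was not tested.

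**Figure D1:**
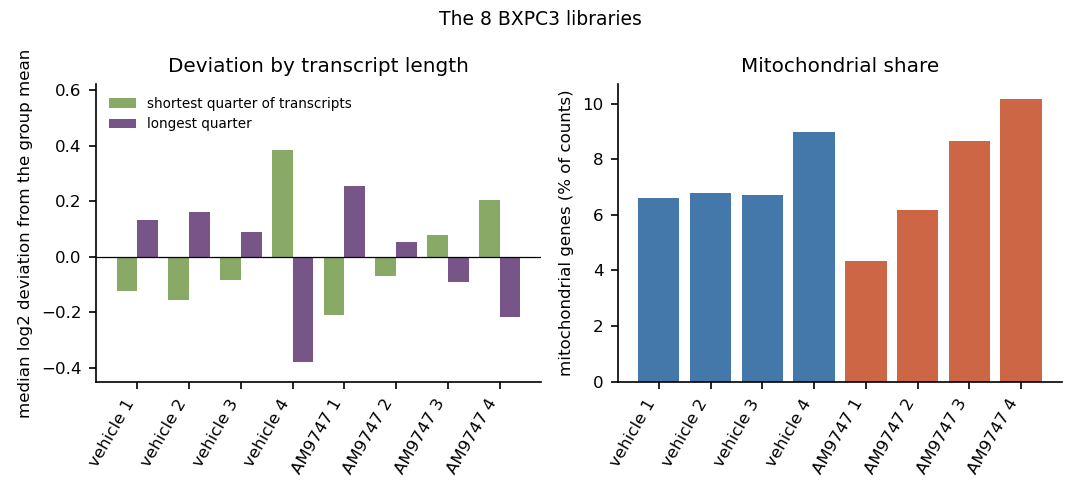
The left panel plots, for each of the 8 BXPC3 libraries, the median log2 deviation from the group mean of genes in the lower and the upper quartile of transcript length (shortest and longest), and the right panel plots the percent of counts on mitochondrial genes. Vehicle 4 has the largest deviations (0.38 and -0.38), and the mitochondrial share with AM9747 runs from 4.34 to 10.2%.

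After 6 days with AM9747, 2335 of 17638 tested genes were higher (13.2%) and 2823 were lower (16%), 29.2% in all. These shares are the base against which the calls within each gene list below are to be read. At least 2-fold changes were called for 1078 higher and 1284 lower genes, and at least 4-fold changes for 291 and 212. The groups did not overlap in 5685 genes (32.2%), among them 2071 of the higher and 2555 of the lower. Separate groups were a condition for the 15 largest rises, the 15 largest falls and the genes with the largest differences in CPM. Their lack of overlap below was therefore set by the choice. The median log2 fold change over all tested genes was 4.17e-05, and its median size without sign was 0.42. Protein-coding genes were called lower (18.4% of 13752) more often than higher (12.6%), while long non-coding RNA genes were called higher (14.8% of 2580) more often than lower (8.57%). Among protein-coding genes, 25% were called lower in the upper quartile of GC content and 12% in the lower quartile. Without single libraries, 1583 to 3365 genes were higher and 2124 to 3398 lower, and 1371 and 1892 of the calls held in all 8 of these fits. A joint fit of all 24 libraries, whose spread includes that of the other lines, called 1020 and 1394.

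**Figure D2:**
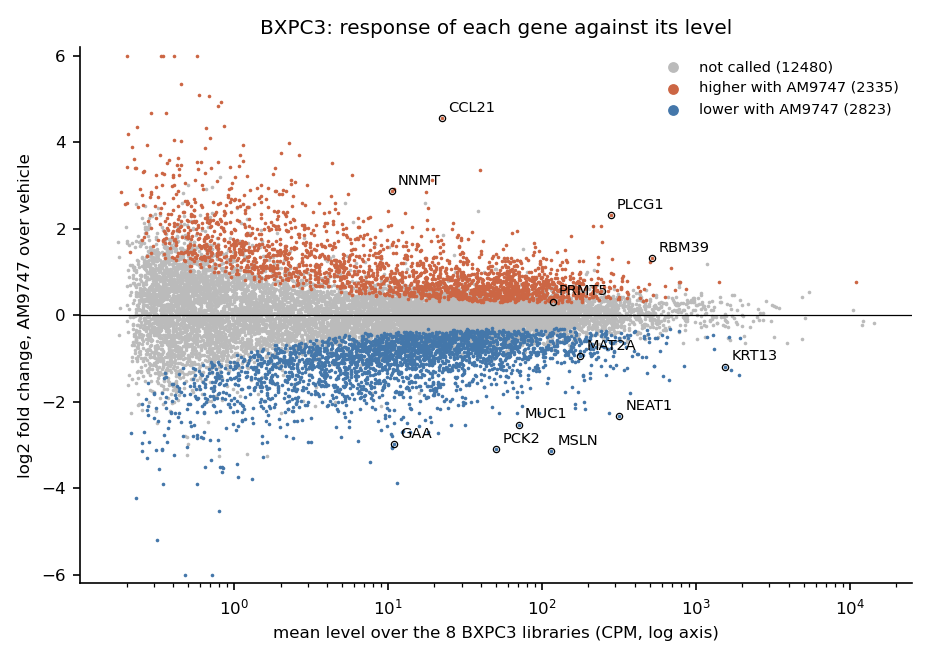
Each point is 1 of the 17638 tested genes, by its mean level over the 8 BXPC3 libraries (CPM, log axis) and its log2 fold change, with values beyond 6 drawn at 6. The 2335 higher genes lie above and the 2823 lower genes below 0, with CCL21 at 4.56 and MSLN at -3.13.

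Of the 5 genes of the PRMT5 methylosome 1 was called lower, the partner WDR77, and 1 higher, the kinase RIOK1. PRMT5 itself (ENSG00000100462, minus strand of chromosome 14 from 22920511 to 22929585 in GRCh38) had levels of 109.6, 106, 109 and 95.5 CPM in vehicle and 155, 132, 122 and 111 CPM with AM9747 (log2 fold change 0.31 ± 0.13, adjusted p 0.0908). Every AM9747 library lay above every vehicle library, but the difference did not pass; it passed with DESeq2 (adjusted p 0.0397). WDR77, the substrate-binding partner of PRMT5, stood at 70.04, 73.8, 74.2 and 102 CPM in vehicle and 44.6, 51.2, 55.7 and 57.3 CPM with AM9747 (log2 fold change -0.62 ± 0.15, adjusted p 0.0125). All AM9747 libraries were below all vehicle libraries, and vehicle 4 was the highest. Among other arginine methyltransferases, PRMT6, which places asymmetric marks, stood at 14.6, 10.9, 14.6 and 16.8 CPM in vehicle and 6.58, 5.45, 4.88 and 4.24 CPM with AM9747 (log2 fold change -1.43 ± 0.19, adjusted p 0.000544), a fall with no overlap. PRMT1, the main asymmetric enzyme, ran from 238 to 376 CPM in vehicle and from 261 to 384 CPM with AM9747 (log2 fold change 0.23 ± 0.19, adjusted p 0.38), and these groups overlapped. RIOK1 went from 30.9 ± 2.46 to 38.8 ± 0.822 CPM (log2 fold change 0.32 ± 0.11, adjusted p 0.0438), and its call was lost without any single library but vehicle 4 (adjusted p 0.0666 to 0.148). Without vehicle 4 the PRMT1 difference passed (log2 0.41, adjusted p 0.0452).

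Methionine, methylthioadenosine and polyamine metabolism covers the methyl donor cycle and the polyamine branch that feeds MTAP. Of its 23 tested genes 5 were higher (21.7%, against 13.2% of all genes). A further 4 were lower (17.4%), near the 16% of all genes, and the median log2 fold change was 0.0124. The higher count was 3 without vehicle 3 or AM9747 3 and 8 without vehicle 4, and the joint fit called 2 in each direction. MAT2A, which makes S-adenosylmethionine, stood at 243, 244, 242 and 200.5 CPM in vehicle and 137, 116, 125 and 106 CPM with AM9747 (log2 fold change -0.94 ± 0.12, adjusted p 0.000535). NNMT, which spends S-adenosylmethionine on nicotinamide, stood at 2.804, 2.54, 2.52 and 2.33 CPM in vehicle and 18.3, 17.8, 17.4 and 20.8 CPM with AM9747 (log2 fold change 2.86 ± 0.14, adjusted p 8.58e-06). The groups were far apart in both genes, with MAT2A low and NNMT high in every AM9747 library. MRI1, of the methionine salvage route after MTAP, fell from 21.2 ± 0.996 to 11.7 ± 0.786 CPM (log2 fold change -0.86 ± 0.11, adjusted p 0.000543), and PAOX, an oxidase of acetylated polyamines, from 7.51 ± 2.38 to 2.69 ± 0.848 CPM (log2 fold change -1.48 ± 0.28, adjusted p 0.00375). ODC1, the first enzyme of polyamine synthesis, rose from 30.4 ± 2.53 to 42.1 ± 1.94 CPM (log2 fold change 0.47 ± 0.11, adjusted p 0.0101). In the joint fit MAT2A (adjusted p 0.118), PAOX (0.116) and ODC1 (0.438) did not pass. CBS, the entry enzyme of transsulfuration, had 80, 56, 42 and 57 raw counts in vehicle and 0 in every AM9747 library. Against a floor of 3 counts per library that is at least 17.3-fold lower, a bound for the reads assigned to CBS alone. The near-identical copy CBSL had 0, 6, 3 and 0 raw counts in vehicle and 16, 1, 6 and 7 with AM9747, so the reads of the pair could be split and the value of CBS is uncertain. MTAP itself had 13, 5, 9 and 16 raw counts in vehicle and 19, 25, 20 and 55 with AM9747, which passed (adjusted p 0.0376) but no longer without vehicle 1, 2 or 3 (adjusted p 0.0853, 0.0908 and 0.0962) or AM9747 2, 3 or 4 (0.0706, 0.0507 and 0.12). MTAP reached at most 1.54 CPM in any library, and gene counts do not show whether these reads come from an intact gene. CDKN2A, the tumour suppressor beside MTAP, had 0 counts in all 8 libraries.

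Of 45 tested SR proteins and hnRNPs, which bind pre-mRNA and steer splice site choice, 13 were higher and 1 lower, with a median log2 fold change of 0.20. The count was 8 without vehicle 3 and 8 in the joint fit of 24 libraries. RBM39, an SR-related splicing factor, stood at 278, 305, 294 and 314 CPM in vehicle and 558, 672, 775 and 960.1 CPM with AM9747 (log2 fold change 1.31 ± 0.16, adjusted p 0.000418). TIAL1, which promotes the use of weak splice sites, stood at 109, 112, 114 and 141 CPM in vehicle and 193, 204, 237 and 300.1 CPM with AM9747 (log2 fold change 0.97 ± 0.16, adjusted p 0.00181). In both genes every AM9747 library was above every vehicle library, and library 4 was the highest of either group. PTBP2, the neural paralog of PTBP1, rose from 5.802 ± 0.541 to 13.5 ± 1.38 CPM (log2 fold change 1.22 ± 0.14, adjusted p 0.000277), and SRSF11 from 119 ± 5.77 to 192 ± 20.97 CPM (log2 fold change 0.68 ± 0.11, adjusted p 0.0018). Of 13 splicing kinases, which phosphorylate SR proteins, 4 rose and none fell, among them CLK1 with 19.1, 19.6, 24.2 and 24.9 CPM in vehicle and 45.8, 50.6, 59.7 and 65.6 CPM with AM9747 (log2 fold change 1.336 ± 0.15, adjusted p 0.000277). CLK4, its close relative, rose from 7.55 ± 0.968 to 17.3 ± 1.71 CPM (log2 fold change 1.20 ± 0.14, adjusted p 0.00033). The Sm, LSm and snRNP proteins, several of them substrates of PRMT5, gave 1 call in each direction among 29 tested, SNRPB2 and SNRPN, with a median of 0.32. SNRPN was lower (log2 fold change -0.71 ± 0.18, adjusted p 0.0157), but not without AM9747 3 (adjusted p 0.0507), and SNRPB2 rose from 66.2 ± 11.4 to 111 ± 19.7 CPM (log2 fold change 0.75 ± 0.16, adjusted p 0.00756). NEAT1, the long non-coding RNA that builds paraspeckles, stood at 564, 471, 584 and 506 CPM in vehicle and 78.8, 102, 111 and 128 CPM with AM9747 (log2 fold change -2.34 ± 0.16, adjusted p 2.68e-05). The highest AM9747 library was far below the lowest vehicle library. SRSF11 (adjusted p 0.119) and SNRPB2 (0.132) did not pass in the joint fit.

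Secreted signals were among the largest rises. Of 38 tested chemokines and interleukins 16 were higher and 6 lower (median 0.43), with 8 higher and 2 lower in the joint fit; the lower count was 3 without vehicle 1 or AM9747 3. CCL21, a ligand of the homing receptor CCR7, stood at 1.62, 1.65, 1.76 and 2.27 CPM in vehicle and 29.7, 39.6, 45.4 and 57.7 CPM with AM9747 (log2 fold change 4.56 ± 0.24, adjusted p 8.63e-06). IL33, an alarmin of epithelial cells, stood at 3.97, 4.47, 4.02 and 4.58 CPM in vehicle and 34.5, 28.4, 32.3 and 27.96 CPM with AM9747 (log2 fold change 2.85 ± 0.13, adjusted p 8.58e-06). IL16, a ligand of CD4, stood at 1.17, 1.57, 0.735 and 1.01 CPM in vehicle and 6.84, 8.04, 11.97 and 15.5 CPM with AM9747 (log2 fold change 3.23 ± 0.33, adjusted p 0.000144). The lowest AM9747 library was several-fold above the highest vehicle library in all 3 genes. IL6 rose from 4.02 ± 0.572 to 12.1 ± 0.713 CPM (log2 fold change 1.59 ± 0.15, adjusted p 0.000108), TSLP, which acts on dendritic cells, from 5.84 ± 0.773 to 15.8 ± 1.26 CPM (log2 fold change 1.43 ± 0.14, adjusted p 0.000143), and IL24 from 0.476 ± 0.224 to 4.21 ± 0.452 CPM (log2 fold change 3.14 ± 0.34, adjusted p 0.000191). Among the 6 lower members, CXCL1, a chemokine that attracts neutrophils, fell from 29.9 ± 7.97 to 12.97 ± 1.97 CPM (log2 fold change -1.21 ± 0.19, adjusted p 0.00154) and CXCL8 from 46.6 ± 7.13 to 24.4 ± 4.403 CPM (log2 fold change -0.94 ± 0.17, adjusted p 0.00262).

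Of 24 tested matrix proteases and inhibitors 7 were higher, 2 lower and 15 not called (4 higher in the joint fit). MMP9, a gelatinase, stood at 8.54, 9.28, 9.19 and 12.4 CPM in vehicle and 43.5, 49.6, 47.7 and 32.03 CPM with AM9747 (log2 fold change 2.13 ± 0.18, adjusted p 6.39e-05), and MMP1, a collagenase, at 23.8, 30.1, 30.4 and 28.1 CPM in vehicle and 132, 123, 101 and 78.9 CPM with AM9747 (log2 fold change 1.95 ± 0.17, adjusted p 7.83e-05). Every AM9747 library exceeded the vehicle range, and AM9747 4 was the lowest of its group in both genes. INHBA, which encodes the activin A subunit, rose from 12.4 ± 2.503 to 44.6 ± 11.9 CPM (log2 fold change 1.85 ± 0.22, adjusted p 0.000308), and CGA, the common subunit of glycoprotein hormones, from 2.56 ± 0.814 to 19.3 ± 1.704 CPM (log2 fold change 2.92 ± 0.25, adjusted p 6.57e-05). CST1, a salivary cystatin with near-identical relatives and so an uncertain count, rose from 3.94 ± 2.201 to 34.4 ± 10.7 CPM (log2 fold change 3.13 ± 0.37, adjusted p 0.00029); vehicle 4 was at 7.24 CPM and the other vehicle libraries at 2.73 to 2.92. TNFAIP3, a brake on NF-kB signalling, stood at 74.6, 69.98, 72.4 and 53.4 CPM in vehicle and 214, 232, 246 and 263 CPM with AM9747 (log2 fold change 1.82 ± 0.14, adjusted p 3.83e-05), with no overlap. The 25 tested NF-kB targets split into 6 higher (24%, against 13.2% of all genes) and 3 lower (12%, against 16%). The higher count was 3 without any one of vehicle 1, 2 and 3 and AM9747 2 and 3, and in the joint fit.

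The remaining largest rises had mixed roles. PLCG1, a phospholipase downstream of receptor tyrosine kinases, stood at 95.2, 100.4, 93.9 and 84.7 CPM in vehicle and 286, 399.7, 524 and 651 CPM with AM9747 (log2 fold change 2.31 ± 0.23, adjusted p 0.000134). NOP2, a methyltransferase of ribosomal RNA, stood at 78.9, 87.01, 87.2 and 122 CPM in vehicle and 245, 306, 412 and 592 CPM with AM9747 (log2 fold change 2.05 ± 0.27, adjusted p 0.00054). In both genes AM9747 1 was the lowest and AM9747 4 the highest of the treated libraries. CCND2, a D-type cyclin, rose from 2.61 ± 0.962 to 12.7 ± 1.499 CPM (log2 fold change 2.28 ± 0.27, adjusted p 0.00032), SLCO4A1, an organic anion transporter, from 3.13 ± 0.374 to 16.8 ± 0.568 CPM (log2 fold change 2.42 ± 0.14, adjusted p 1.32e-05), and LCAT, which esterifies plasma cholesterol, from 6.33 ± 1.42 to 29.3 ± 10.97 CPM (log2 fold change 2.21 ± 0.28, adjusted p 0.000426). ZPLD1 rose from 1.39 ± 0.301 to 9.63 ± 4.16 CPM (log2 2.79) and C7orf61 from 2.55 ± 0.732 to 12.2 ± 3.97 CPM (log2 2.25). AGAP6, whose family holds near-identical copies so that its count is uncertain, rose from 2.24 ± 1.28 to 10.6 ± 5.03 CPM (log2 2.24).

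Surface antigens of pancreatic carcinoma were among the largest falls. Of 31 tested surface antigens and mucins 14 were lower and 4 higher (median -0.48), with 8 lower in the joint fit; the higher count was 8 without vehicle 4. MSLN, the glycoprotein mesothelin (ENSG00000102854, GRCh38 chromosome 16, 760762 to 768865, plus strand), stood at 189.6, 166, 194 and 278 CPM in vehicle and 18.2, 22.4, 27.7 and 25.9 CPM with AM9747 (log2 fold change -3.13 ± 0.20, adjusted p 2.07e-05). MUC1, a transmembrane mucin, stood at 117, 109, 115 and 140 CPM in vehicle and 21.9, 22.4, 19.4 and 19.6 CPM with AM9747 (log2 fold change -2.53 ± 0.13, adjusted p 8.58e-06). LY6D, an antigen held by a GPI anchor, stood at 40.7, 41.4, 46.2 and 85.9 CPM in vehicle and 8.42, 9.38, 9.43 and 9.42 CPM with AM9747 (log2 fold change -2.55 ± 0.25, adjusted p 0.000116). No AM9747 library reached the lowest vehicle library in any of the 3 genes, and vehicle 4 was the highest of all. PSCA, the prostate stem cell antigen and also GPI-anchored, fell from 29.3 ± 12.5 to 5.45 ± 0.662 CPM (log2 fold change -2.43 ± 0.27, adjusted p 0.000217), and LYPD2 from 21.4 ± 13.2 to 1.45 ± 0.447 CPM (log2 fold change -3.88 ± 0.42, adjusted p 0.00019); in vehicle 4 they were at 48.0 and 41.1 CPM. AGR2, a disulfide isomerase needed for mucin assembly, fell from 302 ± 45.1 to 75.2 ± 7.97 CPM (log2 fold change -2.01 ± 0.14, adjusted p 2.68e-05), and TSPAN1, a tetraspanin, from 312 ± 44.5 to 69.3 ± 5.695 CPM (log2 fold change -2.17 ± 0.13, adjusted p 1.65e-05). CEACAM5 fell from 738 ± 67.8 to 327 ± 99.2 CPM (log2 fold change -1.17 ± 0.20, adjusted p 0.00231), with an uncertain count because it shares sequence with CEACAM6. AGR2 (adjusted p 0.0634) and CEACAM5 (0.0952) did not pass in the joint fit. MUC13, another transmembrane mucin, rose: it stood at 3.88, 4.22, 4.23 and 4.45 CPM in vehicle and 27.4, 23.6, 19.4 and 15.4 CPM with AM9747 (log2 fold change 2.35 ± 0.19, adjusted p 5.44e-05).

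**Figure D3:**
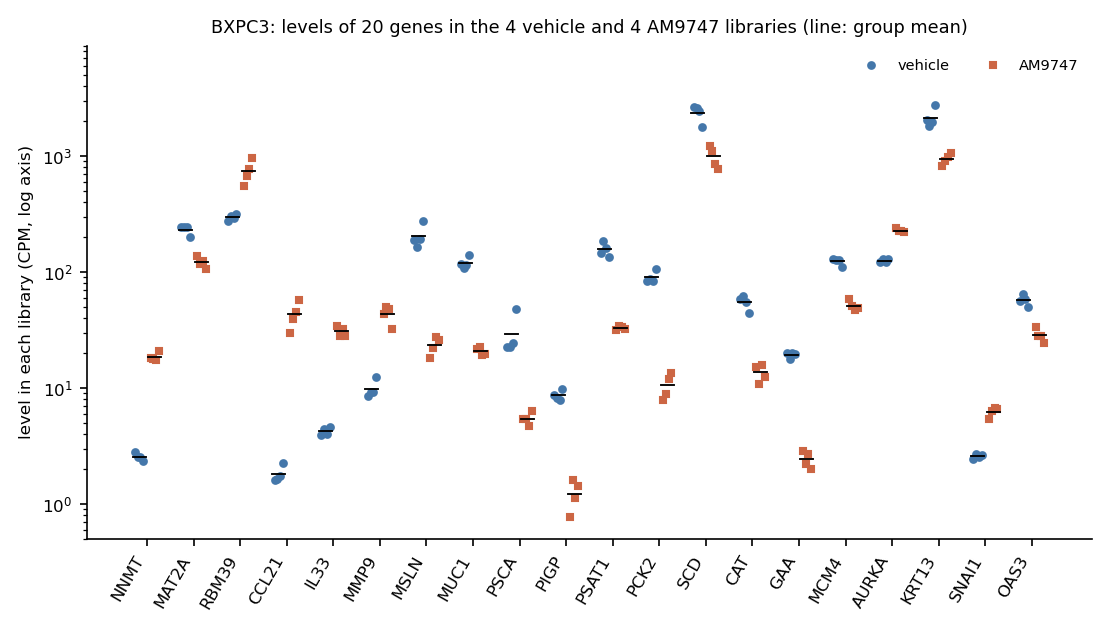
Levels of 20 genes in CPM (log axis) are plotted for the 4 vehicle libraries (circles) and the 4 AM9747 libraries (squares), with a line at each group mean. The groups do not overlap in any of the 20 genes, but separate groups were a condition of the choice of many of them. Over all tested genes 32.2% had groups that did not overlap. MSLN goes from 207 to 23.5 CPM and CCL21 from 1.83 to 43.1 CPM on average.

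Of 29 tested genes that build and attach the GPI anchor, which holds some of these antigens in the membrane, 13 were lower, 1 higher and 15 not called (median -0.41). PIGP and PIGQ, subunits of the enzyme that starts the anchor, stood at 8.67, 8.18, 7.95 and 9.88 CPM in vehicle and 0.765, 1.61, 1.12 and 1.43 CPM with AM9747 (log2 fold change -2.82 ± 0.24, adjusted p 6.36e-05) and at 16.9, 14.2, 16.01 and 24.9 CPM in vehicle and 3.495, 3.81, 4.18 and 4.24 CPM with AM9747 (log2 fold change -2.19 ± 0.20, adjusted p 7.82e-05). GPAA1, of the transamidase that attaches the finished anchor, stood at 46.2, 42.2, 48.8 and 62.1 CPM in vehicle and 10.3, 13.1, 14.9 and 9.34 CPM with AM9747 (log2 fold change -2.06 ± 0.19, adjusted p 8.03e-05). No AM9747 library of these 3 genes reached the vehicle range. PIGO, which adds phosphoethanolamine to the anchor, fell from 33.04 ± 5.45 to 9.39 ± 1.86 CPM (log2 fold change -1.81 ± 0.18, adjusted p 0.000141). KLK10, a secreted serine protease, fell from 114 ± 28.4 to 23.7 ± 2.38 CPM (log2 fold change -2.26 ± 0.18, adjusted p 5.02e-05); among 25 tested kallikreins, serpins and cystatins 9 were lower and 6 higher, with 4 and 2 in the joint fit.

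Of 37 tested genes of the integrated stress response, the ATF4 programme of amino acid shortage with its serine synthesis enzymes, 17 were lower, 2 higher and 18 not called (median -0.41). PSAT1, of the serine pathway, stood at 146, 185, 162 and 135 CPM in vehicle and 31.9, 34.04, 33.5 and 32.5 CPM with AM9747 (log2 fold change -2.25 ± 0.13, adjusted p 1.24e-05). PCK2, the mitochondrial PEP carboxykinase, stood at 84.6, 86.8, 83.96 and 106 CPM in vehicle and 7.96, 8.81, 11.97 and 13.4 CPM with AM9747 (log2 fold change -3.10 ± 0.19, adjusted p 1.65e-05). PHGDH, the first enzyme of serine synthesis, stood at 236, 252, 248 and 327 CPM in vehicle and 85.8, 103, 105 and 113 CPM with AM9747 (log2 fold change -1.38 ± 0.14, adjusted p 0.000157). The groups were wide apart in all 3 genes. ASNS, which makes asparagine, fell from 132 ± 12.8 to 56.4 ± 10.2 CPM (log2 fold change -1.22 ± 0.15, adjusted p 0.00033), and the glutathione-cleaving enzyme CHAC1 from 34.2 ± 5.57 to 11.3 ± 0.537 CPM (log2 fold change -1.60 ± 0.14, adjusted p 6.65e-05). ATF3, a stress-induced transcription factor of the same list, rose from 23.9 ± 3.36 to 46.5 ± 2.25 CPM (log2 fold change 0.96 ± 0.13, adjusted p 0.000573). Of 20 cytosolic aminoacyl-tRNA synthetases 6 were lower and 1 higher, with no lower call in the joint fit.

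Lysosomal enzymes and autophagy genes fell in part, with 20 of 39 tested members lower and 2 higher (median -0.48). Many lysosomal genes carry the CLEAR element bound by TFEB and its relatives, and the promoters of 3 members are shown because they hold it while their RNA responded differently. RefSeq promoters were matched for 27 of the 39 members, and TCACGTGA, which reads the same on either strand, occurred in the 250 bases before the start in 5 of them (18.52%), against 0.89% of all 27305 promoters and 1.66% of those of tested protein-coding genes. It occurred in 2 of the 12 matched members that fell and in 3 of the 13 that were not called. The 100 bases before the start are printed 5′ to 3′ on the gene's strand from RefSeq (GRCh38.p14), with the element in capitals: chr17:80101481-80101580 for GAA, chr20:45891235-45891334 for CTSA and chr19:7522524-7522623 for MCOLN1, all on the plus strand.
GAA: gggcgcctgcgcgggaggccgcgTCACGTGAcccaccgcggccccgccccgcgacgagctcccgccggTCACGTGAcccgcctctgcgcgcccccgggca
CTSA: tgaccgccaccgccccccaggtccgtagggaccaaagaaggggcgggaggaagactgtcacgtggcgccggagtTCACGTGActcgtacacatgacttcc
MCOLN1: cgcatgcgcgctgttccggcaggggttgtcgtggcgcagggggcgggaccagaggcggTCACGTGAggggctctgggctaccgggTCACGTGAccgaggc
GAA, the acid glucosidase that clears lysosomal glycogen and holds the element at -77 and -32 from its start, stood at 20.04, 17.7, 19.9 and 19.8 CPM in vehicle and 2.86, 2.23, 2.72 and 2.02 CPM with AM9747 (log2 fold change -2.97 ± 0.16, adjusted p 8.63e-06). CTSA, a protective carboxypeptidase with the element at -26, stood at 136, 147, 147 and 196 CPM in vehicle and 84.4, 94.7, 92.7 and 109.6 CPM with AM9747 (log2 fold change -0.71 ± 0.14, adjusted p 0.00499). MCOLN1, the lysosomal calcium channel with the element at -42 and -15, stood at 4.702, 3.51, 5.04 and 5.82 CPM in vehicle and 3.98, 5.15, 5.09 and 6.06 CPM with AM9747 (log2 fold change 0.09 ± 0.20, adjusted p 0.779). GAA and CTSA fell without overlap, while the MCOLN1 groups overlapped and it was not called. A match is a description of these letters only.

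The other lysosomal falls included hydrolases of several substrates. ACP2, a lysosomal phosphatase, stood at 31.9, 27.5, 30.3 and 36.8 CPM in vehicle and 4.51, 4.85, 5.52 and 4.71 CPM with AM9747 (log2 fold change -2.69 ± 0.14, adjusted p 8.63e-06). FUCA1, a fucosidase, fell from 77.1 ± 7.29 to 28.9 ± 0.961 CPM (log2 fold change -1.41 ± 0.11, adjusted p 4.86e-05). CTSD, an aspartic protease, stood at 554, 507, 582 and 689.5 CPM in vehicle and 214, 199, 155 and 98.5 CPM with AM9747 (log2 fold change -1.80 ± 0.23, adjusted p 0.000458). The spread with AM9747 was wide for CTSD, with AM9747 4 the lowest, but no treated library approached the vehicle range.

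Peroxisomal genes had the highest share of falls of any list: 18 of 30 tested were lower and 1 higher (median -0.61), with 10 lower in the joint fit. EPHX2, an epoxide hydrolase, stood at 13.6, 13.04, 11.6 and 17.1 CPM in vehicle and 0.867, 1.4, 1.71 and 1.29 CPM with AM9747 (log2 fold change -3.39 ± 0.23, adjusted p 2.65e-05). CAT, the catalase that removes hydrogen peroxide, stood at 58.5, 62.2, 55.6 and 44.8 CPM in vehicle and 15.3, 10.9, 15.9 and 12.4 CPM with AM9747 (log2 fold change -2.02 ± 0.16, adjusted p 5.45e-05). HSD17B4, of peroxisomal beta-oxidation, stood at 102, 104, 98.3 and 106 CPM in vehicle and 51.1, 50, 51.6 and 52.9 CPM with AM9747 (log2 fold change -0.99 ± 0.09, adjusted p 0.000104). All 18 falls had groups that did not overlap, as did 2555 of the 2823 lower genes of the whole comparison. ACOX3, a branched-chain acyl-CoA oxidase, fell from 11.01 ± 1.05 to 3.02 ± 0.756 CPM (log2 fold change -1.86 ± 0.21, adjusted p 0.000244), and the import genes PEX10 and PEX19 were also lower (log2 -1.54 and -0.999). PEX19 did not pass in the joint fit (adjusted p 0.134).

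Lipid synthesis was lower in 13 and higher in 2 of 33 tested genes (median -0.34). The count of lower genes was 6 without vehicle 1 or vehicle 3, 7 without AM9747 3, and 8 without vehicle 2, AM9747 2 or AM9747 4, and 8 in the joint fit. SCD, the stearoyl-CoA desaturase, stood at 2628, 2626, 2463 and 1788 CPM in vehicle and 1229, 1110, 856 and 781 CPM with AM9747 (log2 fold change -1.26 ± 0.19, adjusted p 0.00102). FADS1, which desaturates polyunsaturated fatty acids, stood at 166, 168, 163 and 149 CPM in vehicle and 65.5, 60.2, 48.5 and 45.2 CPM with AM9747 (log2 fold change -1.56 ± 0.14, adjusted p 8.03e-05). SREBF1, the transcription factor of the pathway, stood at 432, 357, 392 and 439 CPM in vehicle and 184, 177, 182 and 149.8 CPM with AM9747 (log2 fold change -1.23 ± 0.12, adjusted p 0.000124). In these 3 genes no treated library reached the vehicle range.

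Mitochondrial genes encoded in the nucleus fell in part. Complex I subunits and assembly factors had 13 lower and 0 higher of 53 tested (7 lower in the joint fit), with a median of only -0.09. ACAD9, an assembly factor of complex I, stood at 48.1, 48.99, 48.9 and 57.2 CPM in vehicle and 13.1, 11.3, 12.2 and 12.8 CPM with AM9747 (log2 fold change -2.04 ± 0.12, adjusted p 1.32e-05), and the groups were far apart. The mitochondrial ribosome had 13 lower and 2 higher of 77 (6 lower in the joint fit), near the 16% of all genes; MRPS16, a small subunit protein, fell from 50.01 ± 4.05 to 16.8 ± 0.601 CPM (log2 fold change -1.57 ± 0.11, adjusted p 2.68e-05). MMAB, which prepares cobalamin for use in mitochondria and shares its start region with MVK, fell from 11.3 ± 3.62 to 1.49 ± 0.366 CPM (log2 fold change -2.92 ± 0.28, adjusted p 0.0001). Of 43 tested glutathione and NRF2 target genes 13 were lower and 1 higher (8 lower in the joint fit). Of 23 retinoid and aldehyde enzymes 9 were lower and 2 higher. ALDH3A1, an aldehyde dehydrogenase of epithelia, stood at 879.6, 808, 912 and 1328 CPM in vehicle and 330.1, 342, 375 and 351 CPM with AM9747 (log2 fold change -1.49 ± 0.16, adjusted p 0.000222), and STRA6, the retinol receptor, fell from 9.405 ± 0.848 to 1.99 ± 0.618 CPM (log2 fold change -2.24 ± 0.23, adjusted p 0.000154).

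Other transporters, enzymes and surface genes completed the largest falls. SLC7A4, an orphan member of the cationic amino acid carriers, stood at 18.8, 17.5, 20.6 and 19.3 CPM in vehicle and 2.65, 2.86, 2.02 and 1.51 CPM with AM9747 (log2 fold change -3.07 ± 0.21, adjusted p 2.42e-05), and HAL, which deaminates histidine, at 24.1, 24.01, 21.5 and 17.04 CPM in vehicle and 3.27, 3.31, 3.41 and 3.65 CPM with AM9747 (log2 fold change -2.67 ± 0.15, adjusted p 1.32e-05). The groups of both were wide apart. ABO, the blood group glycosyltransferase, fell from 21.2 ± 4.34 to 3.29 ± 1.17 CPM (log2 fold change -2.69 ± 0.28, adjusted p 0.000165), SLC29A2, a nucleoside transporter, from 23.96 ± 4.18 to 3.66 ± 2.07 CPM (log2 fold change -2.71 ± 0.35, adjusted p 0.000525), and ARPIN, an inhibitor of the Arp2/3 complex, from 36.9 ± 9.03 to 5.54 ± 0.928 CPM (log2 fold change -2.73 ± 0.21, adjusted p 4.86e-05). ARSD fell by 2.66 and VWDE by 2.80 on the log2 scale. SLURP2 fell by 2.76; it overlaps LYNX1, and reads of overlapping genes cannot be told apart here.

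Of 59 tested DNA replication and G1/S genes 25 were lower, 4 higher and 30 not called (median -0.35), with 13 lower in the joint fit. The E2F factors that drive this programme bind TTTGGCGC, and 3 promoters that hold it are shown because their genes moved in opposite directions. It was found on either strand in 6 of 51 matched members (11.76%), against 0.55% of all promoters and 0.86% of those of tested protein-coding genes. It occurred in 4 of the 20 matched members that fell, 1 of the 4 that rose and 1 of the 27 not called. Each stretch of 100 bases ends at the base before the start, except that of MCM6, which runs from 136 to 37 bases before it. MCM6 holds the motif at -90, within this stretch, and also at -152, outside it. The sequences are from RefSeq (GRCh38.p14), 5′ to 3′ on the gene's minus strand, with the motif or its reverse complement in capitals: chr2:135876480-135876579 for MCM6, chr1:23531234-23531333 for E2F2 and chr12:132687343-132687442 for POLE.
MCM6: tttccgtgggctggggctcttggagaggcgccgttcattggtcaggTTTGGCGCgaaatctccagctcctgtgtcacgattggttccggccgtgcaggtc
E2F2: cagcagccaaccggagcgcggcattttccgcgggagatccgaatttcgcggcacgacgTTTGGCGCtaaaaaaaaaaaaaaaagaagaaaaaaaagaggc
POLE: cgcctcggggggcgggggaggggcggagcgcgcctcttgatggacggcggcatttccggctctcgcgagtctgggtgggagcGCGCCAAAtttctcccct
MCM6, a subunit of the replicative helicase, stood at 68.96, 68.2, 72.3 and 58.7 CPM in vehicle and 44.03, 35.7, 31.4 and 25.7 CPM with AM9747 (log2 fold change -0.97 ± 0.17, adjusted p 0.0022). E2F2, a member of the factor family itself, stood at 11.9, 10.04, 12.7 and 11.9 CPM in vehicle and 5.66, 6.11, 5.596 and 4.57 CPM with AM9747 (log2 fold change -1.08 ± 0.15, adjusted p 0.000681). POLE, the leading-strand polymerase, stood at 74.7, 76, 71.8 and 72.9 CPM in vehicle and 95.04, 107, 112 and 118 CPM with AM9747 (log2 fold change 0.55 ± 0.11, adjusted p 0.00392). MCM6 and E2F2 were low and POLE high in all treated libraries, with no overlap. E2F2 (adjusted p 0.219) and POLE (0.0761) did not pass in the joint fit.

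The other falls of this group covered the helicase, the primase and nucleotide supply. MCM4 stood at 130.1, 128, 127 and 109.8 CPM in vehicle and 58.3, 51.5, 47.4 and 48.5 CPM with AM9747 (log2 fold change -1.27 ± 0.12, adjusted p 8.33e-05), with all treated libraries below 60 CPM. POLA2, of the polymerase alpha-primase complex, fell from 27.6 ± 4.41 to 8.93 ± 1.38 CPM (log2 fold change -1.63 ± 0.17, adjusted p 0.000146), TK1, the thymidine kinase of S phase, from 63.97 ± 15.6 to 20.1 ± 3.84 CPM (log2 fold change -1.67 ± 0.20, adjusted p 0.000347), and RFC5, of the clamp loader, from 38.6 ± 2.99 to 16.9 ± 1.28 CPM (log2 fold change -1.19 ± 0.12, adjusted p 0.000113). CCNE1, cyclin E, rose from 11.8 ± 1.03 to 18.3 ± 0.938 CPM (log2 fold change 0.63 ± 0.12, adjusted p 0.00352). Of 48 homologous recombination and Fanconi anaemia genes 17 were lower and 2 higher (median -0.32); the count of lower genes was 10 without AM9747 2, 11 without AM9747 3 and 8 in the joint fit. FANCI, which is ubiquitinated at stalled forks, fell from 97.6 ± 5.07 to 53.2 ± 6.53 CPM (log2 fold change -0.87 ± 0.12, adjusted p 0.000623), and FANCL, the ligase that does it, from 20.1 ± 2.99 to 7.67 ± 2.001 CPM (log2 fold change -1.39 ± 0.20, adjusted p 0.00079). BLM, a helicase that resolves recombination intermediates, rose from 21.7 ± 3.28 to 36.4 ± 2.15 CPM (log2 fold change 0.75 ± 0.13, adjusted p 0.00272).

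Of 73 tested mitosis and kinetochore genes 28 were higher, 6 lower and 39 not called (median 0.35). The count of higher genes was 15 without vehicle 1, 16 without vehicle 3 or AM9747 2, 17 without AM9747 3 and 9 in the joint fit. AURKA, the spindle pole kinase, stood at 122, 130.1, 121 and 130 CPM in vehicle and 239.8, 225, 225 and 221 CPM with AM9747 (log2 fold change 0.86 ± 0.10, adjusted p 0.00024). TTK, of the spindle checkpoint, stood at 40.4, 45.6, 46.4 and 30.8 CPM in vehicle and 92.4, 80.9, 82.8 and 79.04 CPM with AM9747 (log2 fold change 1.04 ± 0.15, adjusted p 0.000746). Both were higher in every treated library. CENPH, a constitutive centromere protein, fell from 14.2 ± 2.04 to 4.39 ± 0.959 CPM (log2 fold change -1.69 ± 0.20, adjusted p 0.000276). CDK4, the G1 kinase, fell from 138 ± 12.8 to 71.1 ± 7.34 CPM (log2 fold change -0.96 ± 0.12, adjusted p 0.000433). CDKN1A, the p53-induced CDK inhibitor, ran from 106 to 113 CPM in vehicle and from 104 to 146 CPM with AM9747 (log2 fold change 0.18 ± 0.13, adjusted p 0.325), with overlap. MDM4, whose splicing is a known readout of PRMT5 inhibition, stood at 16.01, 19.1, 18.1 and 15.3 CPM in vehicle and 20.3, 21.03, 24.2 and 20.7 CPM with AM9747 (log2 fold change 0.33 ± 0.12, adjusted p 0.0695); gene counts do not separate its isoforms. The MDM4 groups did not overlap, and the difference passed with DESeq2 (adjusted p 0.0226). MYC ran from 164 to 186 CPM in vehicle and from 140 to 173 CPM with AM9747 (log2 fold change -0.14 ± 0.11, adjusted p 0.378). The 27 tested p53 targets gave 3 higher (11.1%) and 4 lower calls (14.8%), near the 13.2 and 16% of all genes. PMAIP1, which encodes NOXA, rose from 40.5 ± 3.04 to 79.2 ± 4.18 CPM (log2 fold change 0.97 ± 0.11, adjusted p 0.00023), and FDXR, a mitochondrial reductase, fell from 26.8 ± 5.86 to 7.47 ± 1.104 CPM (log2 fold change -1.84 ± 0.18, adjusted p 0.000137).

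**Figure D4:**
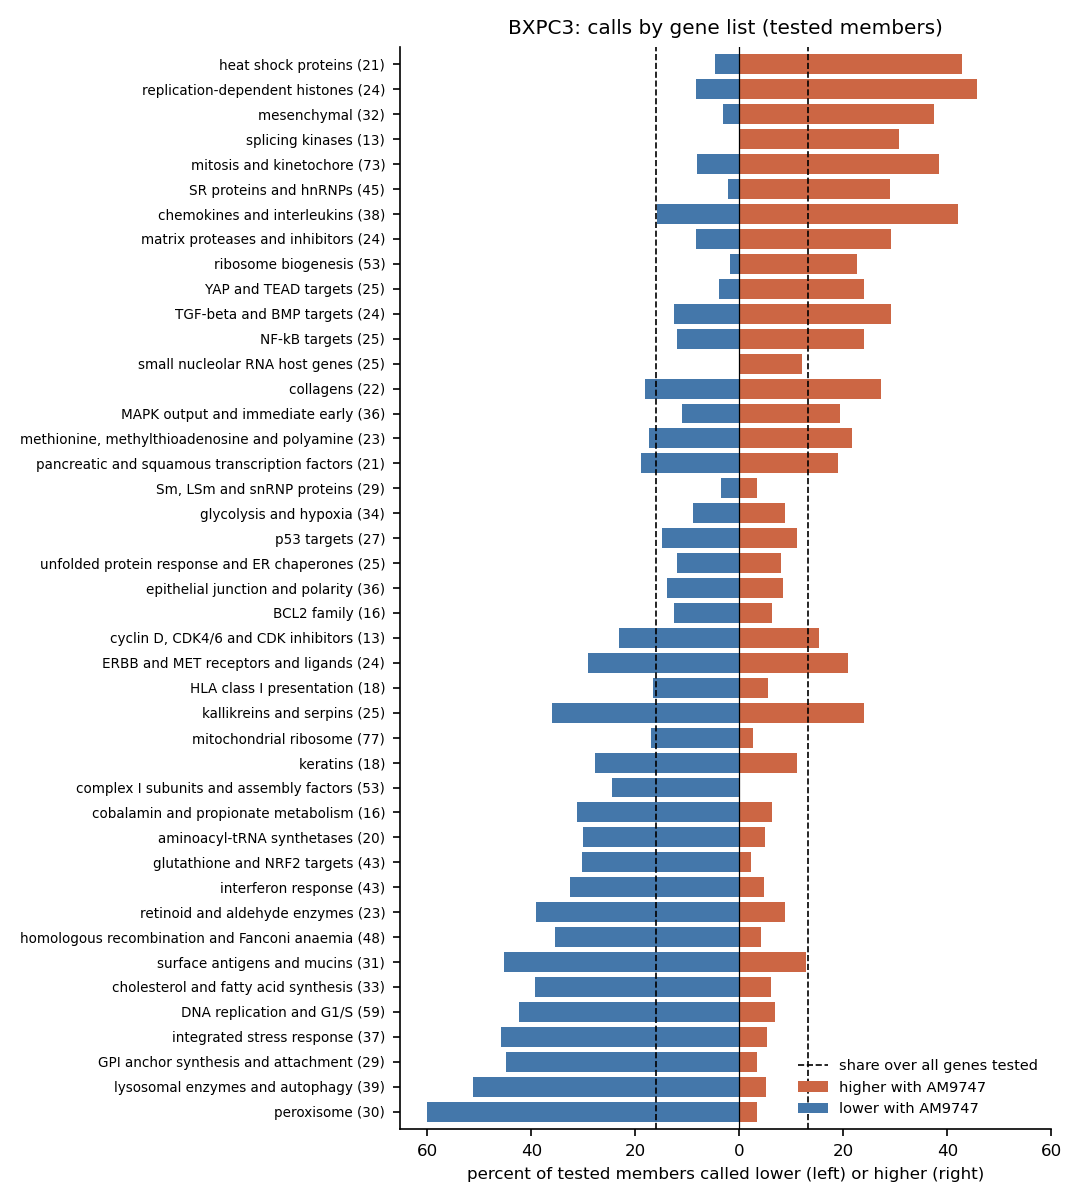
Bars give the percent of tested members of each gene list called lower (left) or higher (right) with AM9747 in BXPC3, with the number tested in brackets for lists with 13 or more. Dashed lines mark the shares over all genes, 16% lower and 13.2% higher; peroxisomal genes reach 60% lower.

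Of 18 tested keratins 5 were lower and 2 higher; the lower count was 3 without vehicle 1 or 4 or AM9747 2 or 3, and in the joint fit. KRT4 and KRT13, the pair of mucosal epithelia, stood at 269.6, 242, 249 and 298 CPM in vehicle and 71.8, 60.4, 59.5 and 63.1 CPM with AM9747 (log2 fold change -2.06 ± 0.12, adjusted p 1.32e-05) and at 2037, 1832, 1984 and 2746 CPM in vehicle and 815, 905, 982 and 1066 CPM with AM9747 (log2 fold change -1.19 ± 0.16, adjusted p 0.00054), and KRT14, of basal cells, stood at 34.3, 35.5, 36.98 and 62.3 CPM in vehicle and 101, 141, 144 and 152 CPM with AM9747 (log2 fold change 1.67 ± 0.22, adjusted p 0.000544). The first pair fell and KRT14 rose with no overlap, and vehicle 4 was the highest vehicle library in all 3. Of 36 tested epithelial junction and polarity genes 5 were lower (13.9%, against 16% of all genes) and 3 higher (8.33%, against 13.2%). CDH1, which encodes E-cadherin, was not called. Of 32 tested mesenchymal genes 12 were higher and 1 lower (median 0.38), with 7 higher in the joint fit. SNAI1, a repressor of E-cadherin, stood at 2.44, 2.72, 2.55 and 2.66 CPM in vehicle and 5.36, 6.31, 6.796 and 6.54 CPM with AM9747 (log2 fold change 1.27 ± 0.15, adjusted p 0.000369). VIM, the mesenchymal filament protein, rose from 7.31 ± 1.902 to 15.3 ± 3.17 CPM (log2 fold change 1.06 ± 0.22, adjusted p 0.00538), and SPARC, a matrix protein, from 0.901 ± 0.242 to 3.48 ± 0.626 CPM (log2 fold change 1.94 ± 0.26, adjusted p 0.00057). COL5A1, a fibrillar collagen, fell from 35.4 ± 3.19 to 18.2 ± 2.29 CPM (log2 fold change -0.96 ± 0.13, adjusted p 0.000661). Levels of SNAI1, VIM and SPARC stayed low after the rise, and fibroblast markers rose beside them as given above.

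The largest differences in CPM included genes of the matrix and the membrane. IGFBP5, which binds insulin-like growth factors, rose from 1043 ± 99.3 to 1785 ± 393 CPM (log2 fold change 0.78 ± 0.17, adjusted p 0.0076), SERPINH1, the collagen chaperone, from 577 ± 117 to 978 ± 143 CPM (log2 fold change 0.76 ± 0.17, adjusted p 0.00772), and ARHGDIB, an inhibitor of small GTPases, from 301 ± 79.8 to 704 ± 174 CPM (log2 fold change 1.23 ± 0.22, adjusted p 0.00297). LRRK1 rose from 584 ± 84.8 to 999 ± 211 CPM and ACTN1, an actin crosslinker, from 589.8 ± 28.2 to 877 ± 139.9 CPM. AGRN, a basement membrane proteoglycan, fell from 1161 ± 149 to 514 ± 56.4 CPM (log2 fold change -1.18 ± 0.14, adjusted p 0.000276), and ITGA3, a laminin receptor, from 892 ± 41.3 to 334 ± 68.2 CPM (log2 fold change -1.42 ± 0.16, adjusted p 0.000227). AQP3, a water and glycerol channel, fell from 1932 ± 159.6 to 1370 ± 60.8 CPM and FXYD3, a regulator of the sodium pump, from 685 ± 246 to 270.5 ± 82.4 CPM. Separate groups were a condition of the choice of these 9 genes. IGFBP5 (adjusted p 0.0612), LRRK1 (0.0526), ACTN1 (0.11), AQP3 (0.317) and FXYD3 (0.0903) did not pass in the joint fit.

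Of 24 tested ERBB and MET receptors and ligands 7 were lower (29.2%, against 16% of all genes) and 5 higher (20.8%, against 13.2%). The higher count was 3 without any one of vehicle 1 and 3 and AM9747 1, 2 and 3. In the joint fit 2 were lower and 1 higher. ERBB3 stood at 166, 171, 155 and 142 CPM in vehicle and 83.4, 83.5, 83.1 and 89.6 CPM with AM9747 (log2 fold change -0.90 ± 0.10, adjusted p 0.000277), and MST1R, the RON receptor, at 73.2, 71.2, 71.99 and 72.7 CPM in vehicle and 17.6, 22.7, 30.5 and 32.3 CPM with AM9747 (log2 fold change -1.49 ± 0.18, adjusted p 0.000408), both without overlap. In the joint fit ERBB3 did not pass (adjusted p 0.248). EGR1, an immediate early gene, stood at 279, 263, 269.7 and 276 CPM in vehicle and 159, 142, 133 and 137 CPM with AM9747 (log2 fold change -0.93 ± 0.10, adjusted p 0.000226), a fall in every treated library. DUSP10, a phosphatase of stress kinases, rose from 38.4 ± 4.67 to 91.4 ± 4.89 CPM (log2 fold change 1.25 ± 0.12, adjusted p 0.000108). Of 36 MAPK output genes 7 were higher (19.4%, against 13.2% of all genes) and 4 lower (11.1%, against 16%).

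Interferon response genes were lower in 14 and higher in 2 of 43 tested (median -0.27), with 7 lower in the joint fit. OAS3, an antiviral synthetase, stood at 56.6, 64.3, 59.03 and 49.6 CPM in vehicle and 33.9, 28.1, 28.1 and 24.3 CPM with AM9747 (log2 fold change -1.005 ± 0.14, adjusted p 0.000672). PARP9 fell from 50.5 ± 6.55 to 25.1 ± 2.91 CPM (log2 fold change -1.01 ± 0.14, adjusted p 0.000683). Treated libraries lay below the vehicle range in both genes. Of 18 tested class I presentation genes 3 were lower (16.7%, against 16% of all genes) and 1 higher (5.56%, against 13.2%). PSMB10, an immunoproteasome subunit, fell from 60.6 ± 18.03 to 23.2 ± 2.65 CPM (log2 fold change -1.39 ± 0.20, adjusted p 0.000798).

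Heat shock proteins rose in 9 and fell in 1 of 21 tested (median 0.40), with 2 higher in the joint fit. HSPH1, a large cytosolic chaperone, stood at 148, 165, 155 and 133 CPM in vehicle and 340.2, 338, 289 and 257 CPM with AM9747 (log2 fold change 1.03 ± 0.13, adjusted p 0.000443), above the vehicle range throughout. DNAJB1, a co-chaperone, fell from 171 ± 11.96 to 119.5 ± 12.8 CPM (log2 fold change -0.52 ± 0.12, adjusted p 0.00878), and did not pass in the joint fit (adjusted p 0.111). Ribosome biogenesis genes were higher in 12 and lower in 1 of 53; the count of higher genes was 3 without vehicle 3, 4 without vehicle 1, vehicle 2 or AM9747 3, 6 without AM9747 2 and 5 in the joint fit, and 19 without vehicle 4 and AM9747 4 together. TAF1D, of the RNA polymerase I machinery, rose from 57.7 ± 1.73 to 104 ± 7.97 CPM (log2 fold change 0.86 ± 0.10, adjusted p 0.000339). Replication-dependent histones, whose mRNA has no poly(A) tail in cycling cells and which were tested in 24 of 57 members, were higher in 11 and lower in 2 (median 0.58). The count of higher histones was 5 without AM9747 3, 6 without vehicle 3, 7 without vehicle 1, vehicle 2 or AM9747 2, and 2 in the joint fit. H2BC5 stood at 25.4, 23.7, 23.2 and 35.7 CPM in vehicle and 59.2, 65.9, 74.8 and 79.2 CPM with AM9747 (log2 fold change 1.37 ± 0.17, adjusted p 0.00039), with no overlap; histone genes share sequence, so these counts are uncertain.

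Among long non-coding RNAs, the largest rises were LINC00622 (from 0.696 ± 0.204 to 8.002 ± 2.02 CPM, log2 3.52), AC245140.2 (from 7.03 ± 1.71 to 71.6 ± 15.1 CPM, log2 3.35), UCKL1-AS1 (log2 2.55) and AL034417.5 (log2 2.53). The largest falls beside NEAT1 were OGFRP1 (log2 -2.43), LINC00894 (log2 -2.39) and C8orf31 (log2 -2.18). The choice of these 8 RNAs required separate groups. The strand setting of the counting is not given, so reads of UCKL1-AS1 and UCKL1 cannot be told apart. AC245140.2, AL034417.5 and LINC00894 are also annotated as antisense, and the same limit holds for them. LINC00622 is annotated as sense-overlapping, so its count is uncertain too.

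A test of the difference between lines compared the BXPC3 response with the mean of the MIAPACA2 and PSN1 responses over all 24 libraries. MIAPACA2 was treated at 150 nM and BXPC3 and PSN1 at 100 nM. Line and dose therefore cannot be told apart in the MIAPACA2 part of that mean. Of 22883 tested genes 593 differed (2.59%), 206 with a more positive response in BXPC3 (0.9%) and 387 with a more negative one (1.69%). The 15 largest rises and 15 largest falls were chosen for their size in BXPC3, so their lean towards this line is set by the choice. Among them 18 had counts in every group of the other lines, and 10 of the 18 differed. SLCO4A1 rose 2.29 log2 units more in BXPC3 (SE 0.204, adjusted p 6.8e-07), going from 78.9 to 106 CPM in MIAPACA2 and from 462 to 411 CPM in PSN1. GAA fell more in BXPC3 (difference -1.64, SE 0.218, adjusted p 0.000136) but was also lower in the treated MIAPACA2 (228 to 105 CPM) and PSN1 libraries (134 to 45.9 CPM). MSLN (difference -2.87, SE 0.612, adjusted p 0.0116) lay between 0.473 and 1.48 CPM on average in the other lines and did not differ past the threshold from PSN1 alone (-2.39, adjusted p 0.0889). The falls of ARSD (-2.17), ARPIN (-2.08), MMAB (-2.11), HAL (-3.84) and SLC7A4 (-3.41) also differed. HAL (0.0593 to 0.347 CPM) and SLC7A4 (0.234 to 0.772 CPM) had low means in every group of the other lines, and SLC7A4 did not pass without AM9747 3 of BXPC3 (adjusted p 0.0525). EPHX2 (-1.50, adjusted p 0.0381) and PCK2 (-0.87, adjusted p 0.0498) passed narrowly. The EPHX2 call was lost without any single BXPC3 library (adjusted p 0.0525 to 0.0897), and the PCK2 call without any of them but AM9747 4 (0.0819 to 0.142); they were also lost without 8 and 14 of the 16 libraries of the other lines, respectively. Against PSN1 alone EPHX2 did not pass (adjusted p 0.277) and the sign of PCK2 turned (0.40, adjusted p 0.431). The counts of differing genes ranged from 99 to 370 and from 173 to 1157 without single libraries, both maxima without vehicle 1 of PSN1. The minima were those without AM9747 4 (99) and AM9747 3 (173) of BXPC3, and the counts were also lower by over 1.5 times without vehicle 1 (109 and 200), 2 (110 and 245) or 3 (105 and 215), or AM9747 2 (122 and 188), of BXPC3. PLCG1 did not pass (difference 0.35, SE 0.32, adjusted p 0.66): it went from 135 to 647 CPM in MIAPACA2 and from 244 to 766 CPM in PSN1. CCL21, CGA, LYPD2, SLURP2 and ABO had means of at most 0.0364 CPM in both other lines in both groups. Their differences are left out, because a group without counts gives no defined fold change. The differences are left out too for the other 7 of the 30 genes, which also had a group without counts. Such genes were not removed from the 22883 tested, so the 593 that differed can include some. Of these, MUC13 went from 7.91 to 78.5 CPM, CST1 from 889 to 1760 CPM, VWDE from 12.2 to 2.4 CPM, NNMT from 157 to 149 CPM and IL33 from 221 to 162 CPM in PSN1, and all 5 had no counts in MIAPACA2. ZPLD1 (at most 1.21 CPM) and CCND2 (at most 0.588 CPM) were low in both other lines. IL16, C7orf61, AGAP6, LCAT, MMP9, SLC29A2 and ACP2 did not pass.

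**Figure D5:**
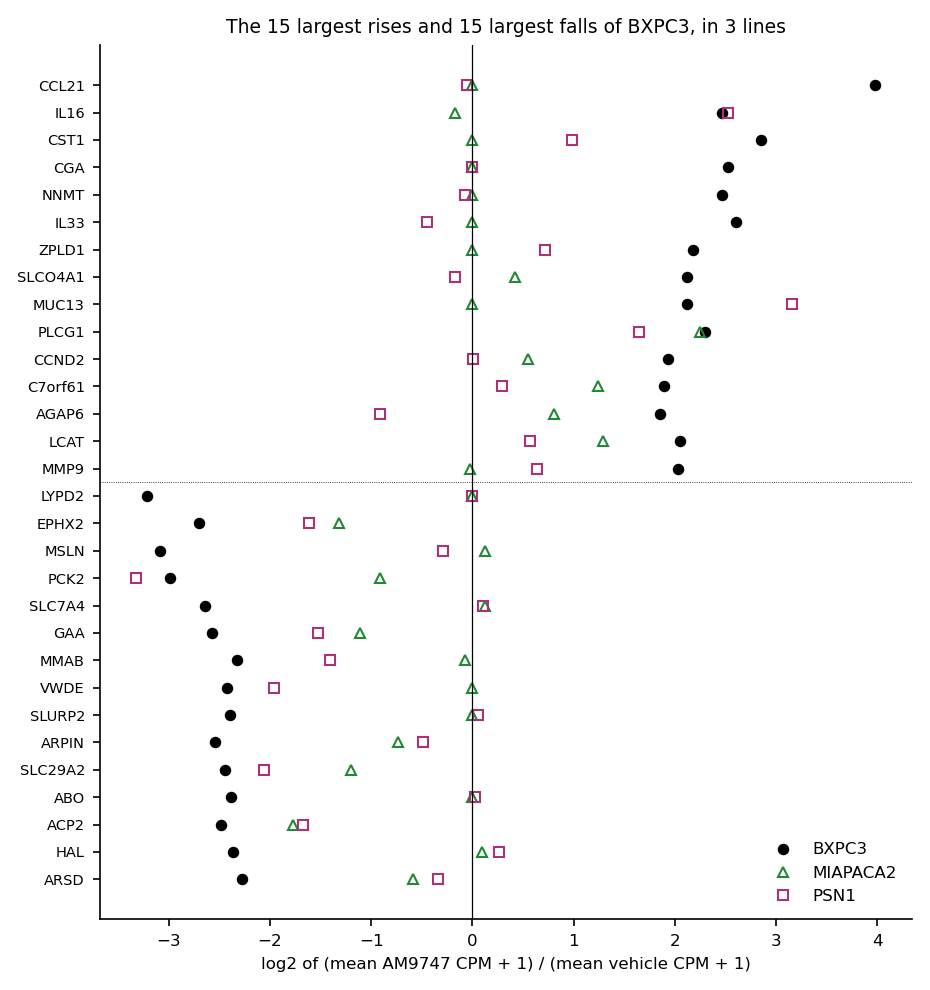
The log2 ratio of mean CPM plus 1, AM9747 over vehicle, is plotted for the 15 largest rises and 15 largest falls of BXPC3 in each of the 3 lines. Points at 0 include genes with no counts in a line; PLCG1 lies to the right of 0 and ACP2 to the left of 0 in all 3 lines.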

How the data were processed

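RNA was measured by poly(A)-selected, strand-marking sequencing libraries. The deposited matrix holds the authors' raw read counts per gene; per the submitters' processing notes the tools were fastp 0.19.8, HISAT2 2.2.0, R 4.0.2 and DESeq2 1.34.0 on GRCh38, while the counting program, its strand setting and the role of each tool were not given in the sources used here. Gene positions are from GENCODE 29 (GRCh38), matched by the deposited identifiers.

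The 8 BXPC3 libraries were fitted alone in R 4.3.3 with edgeR 4.0.16 (filterByExpr, TMM, quasi-likelihood test, Benjamini-Hochberg adjustment, threshold 0.05). The difference between lines was a contrast in a fit of all 24 libraries. limma 3.58.1 and DESeq2 1.42.0 served as alternatives, beside other scalings and filters, covariates, a replicate block and the omission of each library. Totals of 33.2 to 45.6 M counts per library limit precision at low levels; floors cover counting error only. Standard errors were computed as the log2 fold change over the square root of F.

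Named genes were the key genes PRMT5, WDR77, MTAP, CDKN2A, MAT2A, MDM4, CDKN1A and MYC, the 15 largest rises and 15 largest falls by log2 fold change among called protein-coding genes with a mean of at least 5 CPM and separate groups, the genes with the largest difference in mean CPM (8 that rose, 8 that fell), the 4 largest rises and falls among long non-coding RNAs at a mean of at least 2 CPM, up to 4 members per list by smallest p, and genes with at most 3 counts in each library of one group and at least 30 in each of the other. Chosen after their values were seen were ASNS, BLM, CCNE1, CEACAM5, CTSA, CXCL8, DNAJB1, E2F2, FUCA1, IL24, LY6D, MCM6, MCOLN1, ODC1, PAOX, PEX10, PEX19, PHGDH, POLE, PRMT1, PSCA, TK1 and VIM. The members and the 46 gene lists and 6 marker lists were chosen with earlier results of these data known. A few items are not reported here. Promoters are RefSeq sequences of 250 bases before each start.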

Additional observations from a re-analysis of the deposited data

Results flagged for a closer look

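Among the 290 groups of 4 libraries of the genes named in the report, 31 held a library whose gap to its nearest neighbour exceeded Dixon's critical value at 95%. Chance alone gives about 1 such group in 20. Vehicle library 4 was that library in 28 of them. In CPM, it was high for the following genes: ACAD9 (57.2, others 48.1 to 49), ARHGDIB (420, others 246 to 274), CHAC1 (42.5, others 30.5 to 32.4), CST1 (7.24, others 2.73 to 2.92), DNAJB1 (189, others 163 to 166), FXYD3 (1050, others 527 to 587), KLK10 (156, others 95.7 to 104), KRT14 (62.3, others 34.3 to 37), LY6D (85.9, others 40.7 to 46.2), LYPD2 (41.1, others 13.6 to 16.4), MMAB (16.7, others 9.08 to 9.71), PAOX (11, others 5.96 to 6.76), PCK2 (106, others 84 to 86.8), PRMT1 (376, others 238 to 251), PSCA (48, others 22.4 to 24.3), PSMB10 (87.4, others 48.6 to 54.6), SERPINH1 (750, others 497 to 530), SLURP2 (30.9, the lowest of the others 13.4), SNRPB2 (83.2, others 59.2 to 62.2), TIAL1 (141, others 109 to 114) and WDR77 (102, others 70 to 74.1). It was low for MAT2A (200, others 243 to 244), MCM4 (110, others 127 to 130), PEX19 (57.9, others 67.7 to 69.6), PIGO (24.9, others 35.1 to 36.1), PMAIP1 (36, others 41.4 to 42.5), TAF1D (55.1, others 58.2 to 58.7) and VWDE (13, others 20 to 20.7). The other outlying libraries were AM9747 4 for ERBB3 (89.6, others 83.1 to 83.5), vehicle 2 for GAA (17.7, others 19.8 to 20) and AM9747 1 for LY6D (8.42, others 9.38 to 9.43). The part of vehicle 4 in the responses of these genes was not tested beyond the fits without it.

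Among the 18 of the largest BXPC3 changes with counts in every group, 10 differed from the mean response of MIAPACA2 and PSN1 in the fit of 24 libraries. MIAPACA2 was treated at a higher dose, so line and dose cannot be told apart in its part of that mean. The genes were chosen for their size in BXPC3, so their lean towards this line is set by the choice. As given above, EPHX2 and PCK2 lost their calls without many single libraries, and the sign of PCK2 turned against PSN1 alone. The difference in log2 fold change was, in turn, SLCO4A1 2.29, EPHX2 -1.50, MSLN -2.87, PCK2 -0.87, SLC7A4 -3.41, GAA -1.64, MMAB -2.11, ARPIN -2.08, HAL -3.84 and ARSD -2.17.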

How the results depend on the processing

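The counts of higher and lower genes in BXPC3 stayed within 1.5 times of 2335 and 2823 under DESeq2, limma voom, other scalings and both filters. They were 1020 and 1394 in the joint fit of 24 libraries, 3748 and 4277 with the mitochondrial share as a covariate, and 4762 and 4836 with the length deviation as a covariate, which was computed from the same libraries and added after seeing the data. The main calls were all among those of DESeq2 and of both covariate fits. Without single libraries the counts ran from 1583 to 3365 and from 2124 to 3398. Libraries of the same number correlated in their deviations at 0.691, 0.245, -0.301 and 0.727. The deviations are centred within each group and 77.2% of them lie on a single axis. These correlations therefore cannot decide whether the numbers pair the libraries. A replicate block gave 3382 higher and 3737 lower genes. Vehicle 4 and AM9747 4 left out together, also added after seeing the data, gave 3320 and 3662.

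For the difference between lines (206 and 387), the counts were 384 and 755 with limma voom and sample weights, 632 and 816 with DESeq2, 526 and 973 against MIAPACA2 alone, 546 and 763 against PSN1 alone, 113 and 739 without TMM, 129 and 277 without a filter, 258 and 489 with a replicate block, and 117 and 239 without libraries 4 of BXPC3. Without single libraries they ran from 99 to 370 and from 173 to 1157. Against PSN1 alone the differences of IL16 (-2.23) and PCK2 (0.40) changed sign, and the small response of MCOLN1 did so without vehicle 2 (-0.0379) or AM9747 4 (-0.00828), and reached 0.192 without vehicle 4. The cause of these shifts was not tested.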
